A study of Mus musculus with 220 samples.

Results

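Transcripts of 7 genes of the vascular basement membrane were followed across single endothelial cells of mouse lymph nodes: the collagen chains Col4a1, Col4a2, Col15a1 and Col18a1, the secreted glycoproteins Sparc and Sparcl1, and Serpinh1, a chaperone that stays inside the cell. The genes were chosen by name, and all 7 are among the 24049 gene symbols of the deposited table. The cells came from C57BL/6 mice and fall into 4 groups. Blood endothelial cells (homeostatic BEC, 32 cells) and high endothelial cells (homeostatic HEC, 79 cells) were from untreated mice. Inflamed HEC (64 cells) were harvested on day 3 from mice treated on the skin with 4% oxazolone, a contact sensitiser. Dedifferentiated HEC (44 cells) were harvested on day 7 from mice given 1 intraperitoneal injection of LTBR-Ig, a fusion protein that captures the ligands of the lymphotoxin β receptor. All cells were sorted by flow cytometry, and no label names the sort markers, the animals or the capture chips. Each group therefore counts as 1 sample: the SD values below are over cells, and no test between groups was made.

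The basement membrane is the sheet of matrix on which endothelial cells sit. Collagen IV is its main network, and the Col4a1 and Col4a2 chains assemble together into the form found around most vessels. Collagens XV and XVIII lie at the edge of the sheet and carry sugar chains, and a fragment cut from collagen XVIII is endostatin. SPARC binds collagens outside the cell and takes part in how they are laid down, and its relative SPARCL1 is also called hevin, a name taken from high endothelial venules. The product of Serpinh1, also called Hsp47, binds newly made collagen in the endoplasmic reticulum and helps it fold. High endothelial cells form the venules through which lymphocytes enter the node, and their basement membrane lies between the vessel and the reticular sheath around it.

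Levels are FPKM, fragments divided by transcript length and by the mapped total of a cell, so that genes are compared per length, and differences are between means over cells of log2(FPKM + 1). A gene was counted as detected at an FPKM of 1 or more and as called, higher or lower, where the means were at least 1 apart. The depth per cell, approximated from the FPKM steps, was between 716353 and 4931480 fragments. Its median was 1810810 in homeostatic HEC, 2110110 in dedifferentiated HEC and 2124050 in inflamed HEC, with the BEC median inside that range. At the median depth an FPKM of 1 stands for 4.61 fragments of Serpinh1 and 13.4 of Col4a1, so the detection limit lies above single fragments for all members. The median number of genes detected per cell was 3961 among inflamed HEC, 3842 among homeostatic HEC, 3075 among dedifferentiated HEC and 2871 among BEC. Inflamed cells 43 and 60 were near identical (r 0.987, against 0.666 for the next pair of cells) and enter as their average, as 1 cell. Markers of another cell type (3 or more at an FPKM of 10) were carried by 1 of 32 BEC, 7 of 79 homeostatic HEC, 3 of 64 inflamed HEC and 2 of 44 dedifferentiated HEC.

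Col4a1 and Col4a2 lie head to head on chromosome 8. In the mouse build GRCm38, Col4a1 spans chr8:11198423-11312826 on the minus strand and Col4a2 spans chr8:11312805-11449287 on the plus strand. Their annotated first bases overlap by 22 bases, which are shown because both chains start from this stretch in opposite directions (RefSeq, GRCm38.p6, chr8:11312805-11312826, plus strand, 5′ to 3′).
Col4a1 and Col4a2 shared start: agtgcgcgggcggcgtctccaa
Nextera XT libraries do not mark strand, so a fragment lying wholly within these bases cannot be assigned to either gene. The stretch is 22 bases, against longest spliced transcripts of 6615 bases for Col4a1 and 6450 for Col4a2. The annotation also has exons of Gm15419 overlapping Col4a2 and of Gm12426 overlapping Col15a1 on the opposite strand. Reads within the shared bases of those pairs cannot be told apart either, and the length of these overlaps was not measured.

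Collagen IV was highest in BEC and inflamed HEC. Col4a1 had FPKM of 10.8 (lowest), 173 (median) and 830 (highest) in BEC, and 0, 28.4 and 489 in homeostatic HEC. In inflamed HEC the same 3 values were 0.37, 98.6 and 473, and in dedifferentiated HEC they were 0.38, 8.84 and 159. All 32 BEC were at an FPKM of 10 or more, against 53 of 79 homeostatic, 60 of 64 inflamed and 22 of 44 dedifferentiated HEC, and the ranges of all groups overlapped. Mean log2 levels were 6.99 ± 1.62 (SD over 32 cells) in BEC, 6.31 ± 1.84 in inflamed HEC, 4.57 ± 2.45 in homeostatic HEC and 3.57 ± 2.36 in dedifferentiated HEC. No dedifferentiated cell exceeded the BEC median of Col4a1, and 22 of the 44 lay below the lowest BEC.

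By median and mean log2 level Col4a2 had the same order of groups, at lower levels than Col4a1. By mean FPKM dedifferentiated HEC had 45.8, above the 33.9 of homeostatic HEC and above their own Col4a1 (34.2). Its lowest, median and highest FPKM were 0.30, 62.1 and 503 in BEC and 1.21, 50.2 and 409 in inflamed HEC. They were 0, 9.05 and 288 in homeostatic HEC and 0.05, 5.33 and 661 after dedifferentiation. The mean log2 levels were 5.69 ± 2.25 in BEC, 5.56 ± 1.84 in inflamed HEC, 3.36 ± 2.36 in homeostatic HEC and 3.17 ± 2.57 in dedifferentiated HEC. Every one of the 64 inflamed HEC had Col4a2 at 1 or more, against 60 of 79 homeostatic HEC (75.9%, 95% Clopper-Pearson interval 65.02 to 84.9%, counting error over cells only). In dedifferentiated HEC a few cells held most of the transcript: the 10% of cells with the highest values carried 64.8% of the summed Col4a2, against 32.2% among inflamed HEC.

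**Figure D1:**
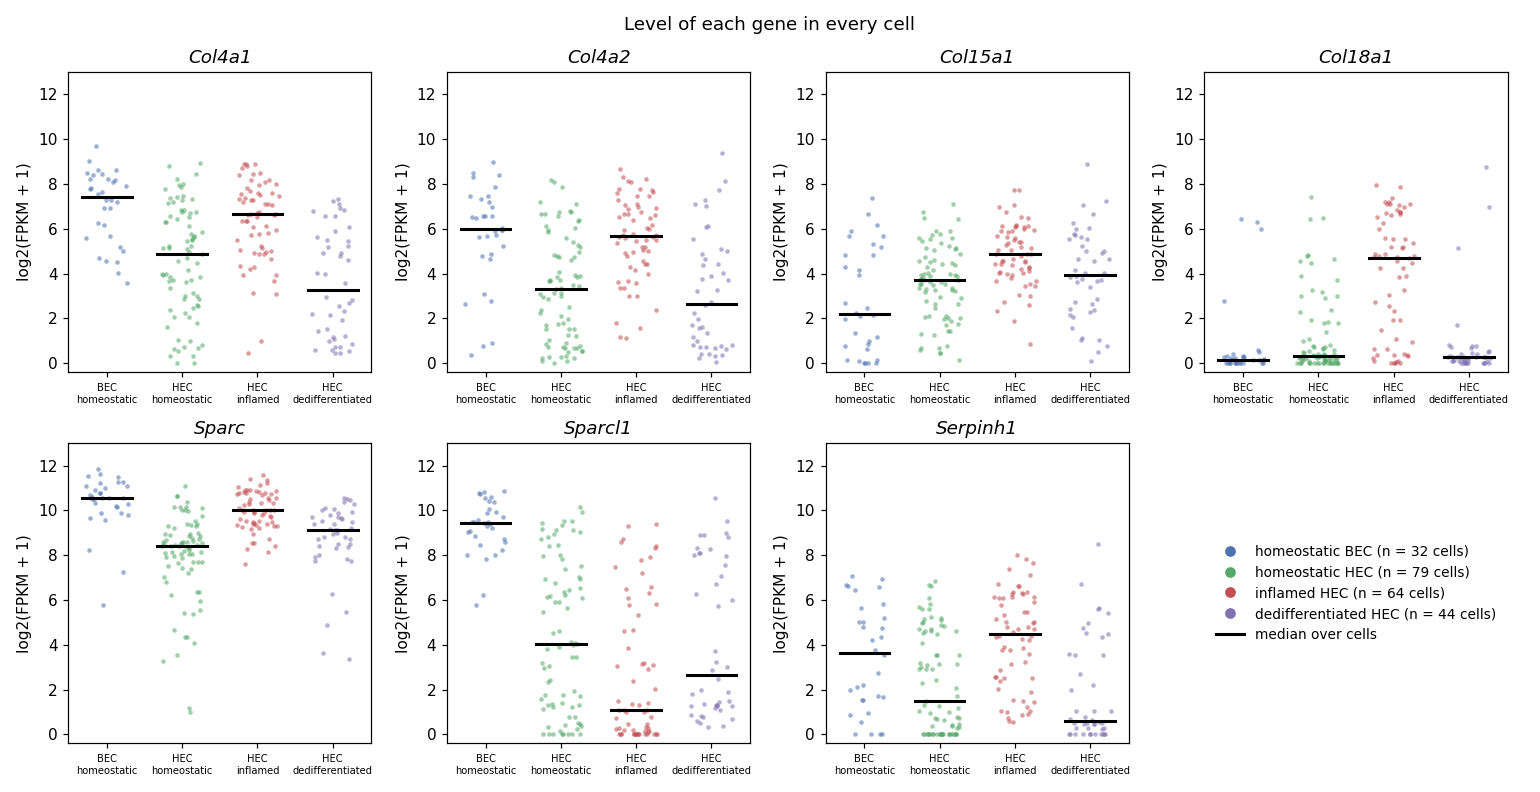
Level of each of the 7 genes in every cell, as log2(FPKM + 1) on the vertical axis, with 1 panel per gene, 1 column of points per group and a black line at the median over cells. Sparc lies high in all groups, Sparcl1 lies high in all 32 BEC and spreads down to 0 in homeostatic and inflamed HEC, and Col18a1 leaves the floor in most inflamed HEC (48 of 64 at an FPKM of 1 or more).

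The collagen IV chains were not in a fixed ratio from cell to cell. Both were detected in 29 of 32 BEC and 62 of 64 inflamed HEC, but in 54 of 79 homeostatic and 26 of 44 dedifferentiated HEC. Among homeostatic HEC, 15 cells had only Col4a1 at an FPKM of 1 or more and 6 had only Col4a2. The other chain was mostly below that limit rather than absent: Col4a1 was at 0 in 2 of 79 cells and Col4a2 in 1. The part of counting and amplification noise in the ratios was not tested. Col4a1 was the higher of the pair in 24 of 32 BEC (75%, interval 56.6 to 88.5%), 53 of 79 homeostatic HEC (67.1%, 55.6 to 77.3%), 36 of 64 inflamed HEC (56.2%, 43.3 to 68.6%) and 26 of 44 dedifferentiated HEC (59.1%, 43.2 to 73.7%). The mean log2 ratio of Col4a1 to Col4a2 was 1.30 ± 1.94 in BEC and, among HEC, 1.21 ± 2.68 (homeostatic), 0.75 ± 2.22 (inflamed) and 0.40 ± 2.79 (dedifferentiated), so the spread over cells exceeded the mean in each group.

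**Figure D2:**
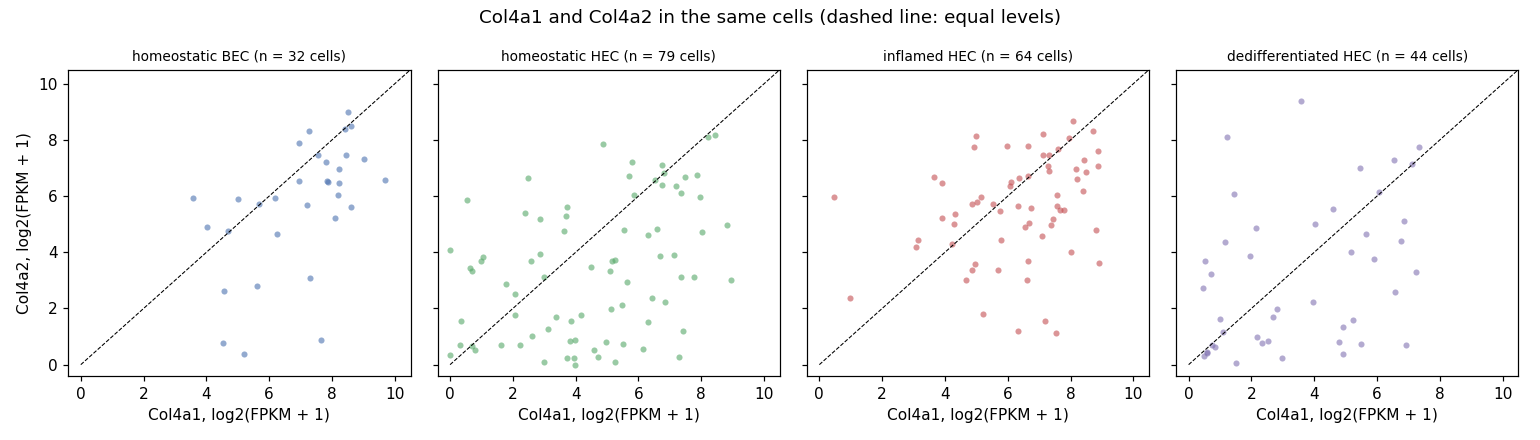
Col4a2 against Col4a1 in the same cell, both as log2(FPKM + 1), with 1 panel per group, 1 point per cell and a dashed line at equal levels. Most BEC and inflamed HEC lie far from both axes, whereas 4 homeostatic and 5 dedifferentiated HEC had neither chain at an FPKM of 1 or more.

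Collagens XV and XVIII, the multiplexins, had patterns of their own. Col15a1 (chr4:47208161-47313167, plus strand) encodes collagen XV and Col18a1 (chr10:77052178-77166548, minus strand) collagen XVIII. Col15a1 had its lowest median and mean log2 level in BEC, where the lowest, median and highest FPKM were 0, 3.60 and 163. Among HEC they were 0.11, 12.2 and 137 for the homeostatic, 0.81, 28.3 and 212 for the inflamed, and 0.06, 14.5 and 479 for the dedifferentiated cells. On the log2 scale its means were 2.81 ± 2.38 in BEC, 3.57 ± 1.65 in homeostatic HEC, 3.96 ± 2.01 in dedifferentiated HEC and 4.85 ± 1.36 in inflamed HEC. Detection ran from 22 of 32 BEC to 72 of 79 homeostatic, 41 of 44 dedifferentiated and 63 of 64 inflamed HEC.

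Col18a1 was near the floor in most cells of every group but inflamed HEC. Its median FPKM was 0.12 in BEC, 0.27 in homeostatic HEC and 0.20 in dedifferentiated HEC, against 24.99 in inflamed HEC, and single cells reached 85.7, 169, 432 and 249 in that order of groups. It was detected in 4 of 32 BEC (12.5%, interval 3.51 to 28.99%), 23 of 79 homeostatic HEC (29.1%, 19.4 to 40.4%), 4 of 44 dedifferentiated HEC (9.09%, 2.53 to 21.7%) and 48 of 64 inflamed HEC (75%, 62.6 to 84.98%). The mean log2 level of 3.96 ± 2.65 in inflamed HEC compares with 1.2 ± 1.77 in homeostatic HEC, 0.81 ± 1.84 in BEC and 0.75 ± 1.77 in dedifferentiated HEC. Among detecting cells the median FPKM was 8.14 in the 23 homeostatic HEC and 35.8 in the 48 inflamed HEC, and 70.3 and 80.5 in the 4 BEC and the 4 dedifferentiated HEC.

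Within a cell, Col15a1 exceeded Col18a1 in 68 of 79 homeostatic HEC (86.1%, interval 76.45 to 92.8%) and 40 of 44 dedifferentiated HEC (90.9%, 78.3 to 97.5%). In inflamed HEC it did so in 34 of 64 (53.1%, 40.2 to 65.7%). The ratio of mean FPKM of Col15a1 to Col18a1 was 2.87 in homeostatic HEC and 0.872 in inflamed HEC.

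Sparc was the most abundant of the genes per length in every group. It lies at chr11:55394500-55423183 on the minus strand. FPKM in BEC were 53.9 (lowest), 1492 (median) and 3653 (highest), and in homeostatic HEC 1.03, 341 and 2154. Inflamed HEC had 193, 1028 and 3048, and dedifferentiated HEC had 9.48, 557 and 1502. No cell of any group fell under an FPKM of 1, and all 64 inflamed HEC were at 100 or more, against 64 of 79 homeostatic HEC. The mean log2 levels were 10.34 ± 1.25 in BEC, 9.99 ± 0.88 among inflamed, 8.71 ± 1.67 among dedifferentiated and 7.93 ± 2.0 among homeostatic HEC.

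Sparcl1, the hevin gene (chr5:104079111-104113733, minus strand), separated BEC from HEC more than any other member. Its lowest, median and highest FPKM in BEC were 53.4, 697 and 1884, so that no BEC was near the floor. Homeostatic HEC had 0, 15.5 and 1131, inflamed HEC had 0, 1.14 and 661, and dedifferentiated HEC had 0.25, 5.44 and 1510. Mean log2 levels were 9.28 ± 1.23 in BEC, 4.39 ± 3.35 in homeostatic HEC, 4.15 ± 3.40 in dedifferentiated HEC and 2.72 ± 3.12 in inflamed HEC. Below the lowest BEC lay 46 of 79 homeostatic, 27 of 44 dedifferentiated and 49 of 64 inflamed HEC. Of the homeostatic HEC 24 were at 100 or more and 8 at 0, of the inflamed HEC 10 and 15, and of the dedifferentiated HEC 15 and 0. At a limit of 10 the gene was found in 43 of 79 homeostatic, 20 of 64 inflamed and 19 of 44 dedifferentiated HEC. Values near 1 are to be read with care, since Glycam1 and Ccl21a, abundant in homeostatic HEC (medians of 59091 and 57488), were also found in all 32 BEC, at medians of 66.2 and 60.1, and the part of such low signal in the members was not tested.

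The balance of Sparc and Sparcl1 differed accordingly. The mean log2 ratio of Sparc to Sparcl1 was 1.06 ± 1.63 in BEC, 3.54 ± 3.48 in homeostatic HEC, 4.55 ± 3.48 in dedifferentiated HEC and 7.27 ± 2.96 in inflamed HEC. Sparc exceeded Sparcl1 in all 64 inflamed HEC, and in 27 of 32 BEC, 67 of 79 homeostatic HEC and 40 of 44 dedifferentiated HEC. The lowest log2 ratio among inflamed HEC was 1.0, whereas in BEC and in homeostatic and dedifferentiated HEC the lowest were -4.58, -5.95 and -3.95.

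**Figure D3:**
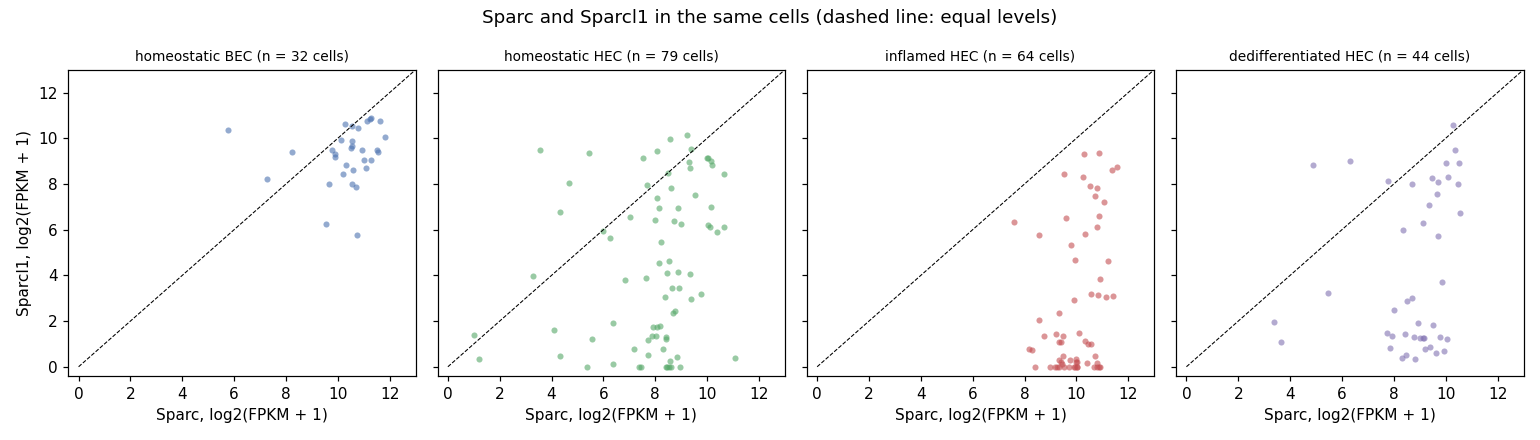
Sparcl1 against Sparc in the same cell, both as log2(FPKM + 1), with 1 panel per group, 1 point per cell and a dashed line at equal levels. BEC sit together at high levels of both genes, and inflamed HEC all lie below the line, with Sparc between 193 and 3048 FPKM and Sparcl1 from 0 to 661.

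Serpinh1 (chr7:99345376-99353239, minus strand) was highest in inflamed HEC and, by median and mean log2 level, lowest in dedifferentiated HEC. The lowest, median and highest FPKM were 0.45, 21.4 and 255 in inflamed HEC and 0, 11.6 and 134 in BEC. Homeostatic HEC had 0, 1.8 and 115, and dedifferentiated HEC had 0, 0.50 and 358. It was detected in 25 of 32 BEC (78.1%, interval 60.03 to 90.7%), 44 of 79 homeostatic HEC (55.7%, 44.1 to 66.9%), 59 of 64 inflamed HEC (92.2%, 82.7 to 97.4%) and 19 of 44 dedifferentiated HEC (43.2%, 28.4 to 58.97%). Mean log2 levels, for the groups in that order, were 3.45 ± 2.39, 2.32 ± 2.23, 4.23 ± 2.11 and 1.87 ± 2.28.

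Because Col15a1, Col18a1 and Serpinh1 were all higher in inflamed than in homeostatic HEC, the stretches before their RefSeq starts are shown, as far as they lie outside annotated exons. They come from the RefSeq promoter table (GRCm38.p6), which held 6 of the 7 members. The coordinates are chr4:47207762-47208011 (plus strand) for Col15a1, chr10:77166549-77166780 (minus strand) for the upstream start of Col18a1, and chr7:99353240-99353489 (minus strand) for Serpinh1. Each is written 5′ to 3′ on the gene's strand, and capitals mark matches to a searched motif.
Col15a1: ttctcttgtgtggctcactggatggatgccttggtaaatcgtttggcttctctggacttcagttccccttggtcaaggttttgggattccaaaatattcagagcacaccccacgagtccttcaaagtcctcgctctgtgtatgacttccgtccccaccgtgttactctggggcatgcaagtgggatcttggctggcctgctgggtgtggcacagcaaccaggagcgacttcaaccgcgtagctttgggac
Col18a1: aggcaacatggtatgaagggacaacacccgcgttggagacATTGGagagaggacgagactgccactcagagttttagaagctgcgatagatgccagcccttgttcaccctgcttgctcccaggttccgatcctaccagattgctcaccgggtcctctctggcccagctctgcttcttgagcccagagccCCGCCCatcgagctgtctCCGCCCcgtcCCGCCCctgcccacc
Serpinh1: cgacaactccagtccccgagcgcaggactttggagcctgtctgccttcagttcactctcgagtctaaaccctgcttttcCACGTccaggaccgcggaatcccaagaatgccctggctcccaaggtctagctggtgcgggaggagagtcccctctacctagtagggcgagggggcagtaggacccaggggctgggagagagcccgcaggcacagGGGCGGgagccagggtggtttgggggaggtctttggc
Motifs were searched on both strands in the 250 bases before each start, and the share of 32536 windows of that length in the table that hold each is given beside it. The CCAAT box (CCAAT) was in 33.8% of windows and the TATA box (TATAAA) in 12.3%. The GC box (GGGCGG) was in 32.97%, and the ETS core (AGGAAG) in 29.6%. The hypoxia element core (ACGTG) was in 16.7%, and the heat shock element core (GAANNTTC) in 6.72%. The AP-1 motif (TGANTCA) was in 6.73%, and the NF-kB motif in 1.40%. The Col15a1 window matched none of these motifs. The upstream Col18a1 window held CCAAT once and GGGCGG 3 times, read on the other strand as ATTGG and CCGCCC. The Serpinh1 window held GGGCGG 37 to 32 bases and ACGTG, read as CACGT, 171 to 167 bases before the start. The Col4a1 window held CCAAT once, read as ATTGG, 145 to 141 bases before the start. The Col4a2 window held CCAAT at another place, 32 to 28 bases before its start, and GGGCGG once on each strand. The window of the downstream Col18a1 start held AGGAAG, 169 to 164 bases before it, and that of Sparc held no match; the windows of these starts and of the collagen IV genes lie wholly or mostly in annotated exons and are not printed. These are matches of letters, and the FPKM are per gene, so that they do not show which start was used.

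In untreated nodes most of these genes were lower in high endothelial cells than in blood endothelial cells. Of the 7 members 5 were lower and 0 higher in homeostatic HEC, beside 4.4% lower and 17% higher of the 9248 genes compared (at an FPKM of 1 or more in over 10% of the cells of either group). The differences, homeostatic HEC minus BEC, were -4.89 for Sparcl1, -2.42 for Col4a1, -2.41 for Sparc, -2.32 for Col4a2 and -1.13 for Serpinh1. The median over the members was -2.32, against 0.28 over all genes compared. Only 10 genes compared lay below Sparcl1. Col15a1 and Col18a1 had differences of 0.77 and 0.39, which turned to -0.11 and -0.05 when mean FPKM were compared instead of mean log2 levels. As ratios of mean FPKM, BEC were 5.49-fold higher for Sparcl1, 3.74-fold for Sparc, 3.24-fold for Col4a2 and 2.89-fold for Col4a1. The difference of Serpinh1 shrank to -0.28 in odd-numbered cells and to -0.91 where cells were matched for how many genes they had.

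Other components of the sheet were lower with the collagen IV chains. Of 10 laminin, nidogen and proteoglycan genes compared, 5 were lower and 0 higher in homeostatic HEC: the laminin chains Lamb1 (-2.48), Lama3 (-1.89) and Lama4 (-1.64), the perlecan gene Hspg2 (-1.87) and the nidogen gene Nid2 (-1.15). Among 13 genes that modify or fold collagen 3 were higher, 1 was lower and 9 lay within 1. Of all genes compared 17% were higher and 4.4% lower, so that counts this small show no direction of their own. P4hb, the shared subunit of the prolyl hydroxylases and a general folding enzyme, was higher by 2.75, Crtap by 1.45 and Pdia3 by 1.34, and Fkbp9 differed by -1.09. Of 11 genes for export from the endoplasmic reticulum 4 were higher, among them the coat components Sec31a (2.26) and Sec13 (2.04). The integrin chain Itga1, part of a collagen receptor, had -2.40 and its partner Itgb1 1.39, the only genes past 1 among 8 receptors. Among 12 proteases and inhibitors 5 were higher and 1 lower, with the protease Ctsl at 4.68, the inhibitor Timp2 at 4.55 and the inhibitor Timp3 at -3.51. Of 15 TGF-β and matrix regulators 2 were higher and 4 lower, including the receptor Tgfbr2 at -3.13.

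Pericytes, which also make collagen IV, were checked through their markers. Summed FPKM of the 9 pericyte markers, of which Cspg4 was 0 in all BEC, ranged from 0.15 to 1196 in BEC (median 16.5) and from 0 to 680 in homeostatic HEC (median 2.30), and Mcam, which endothelial cells also express, had medians of 11.2 and 0.50. Pdgfrb, Des, Notch3 and Kcnj8 each passed an FPKM of 1 in 1 of 32 BEC and did not exceed 0.78 in homeostatic HEC. Rgs5 was detected in 11 of 32 BEC (up to 674) and 21 of 79 homeostatic HEC (up to 20.1), Abcc9 in 7 BEC (up to 125) and 3 homeostatic HEC (up to 1.35), and Acta2 in 3 BEC (up to 2.16) and 1 homeostatic HEC (5.11). The 1 BEC with 3 or more pericyte markers, cell 30, had Col4a1 at 390, Col4a2 at 48.4, Sparc at 1122 and Sparcl1 at 972, within the range of the other BEC. It also had the fibroblast collagens Col1a1 at 8.17, Col1a2 at 6.66 and Col3a1 at 4.52. Col6a1 and Col6a2, collagens of the same fibroblast list, each passed an FPKM of 1 in 1 of 32 BEC, at 711 and 74.6. The number of the BEC with these 2 values was not recorded. With cells carrying other-type markers left out, the median member difference was -2.24. Of 15 dissociation and heat shock genes 9 were higher and 2 lower in homeostatic HEC, and their part in the member differences was not tested.

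**Figure D4:**
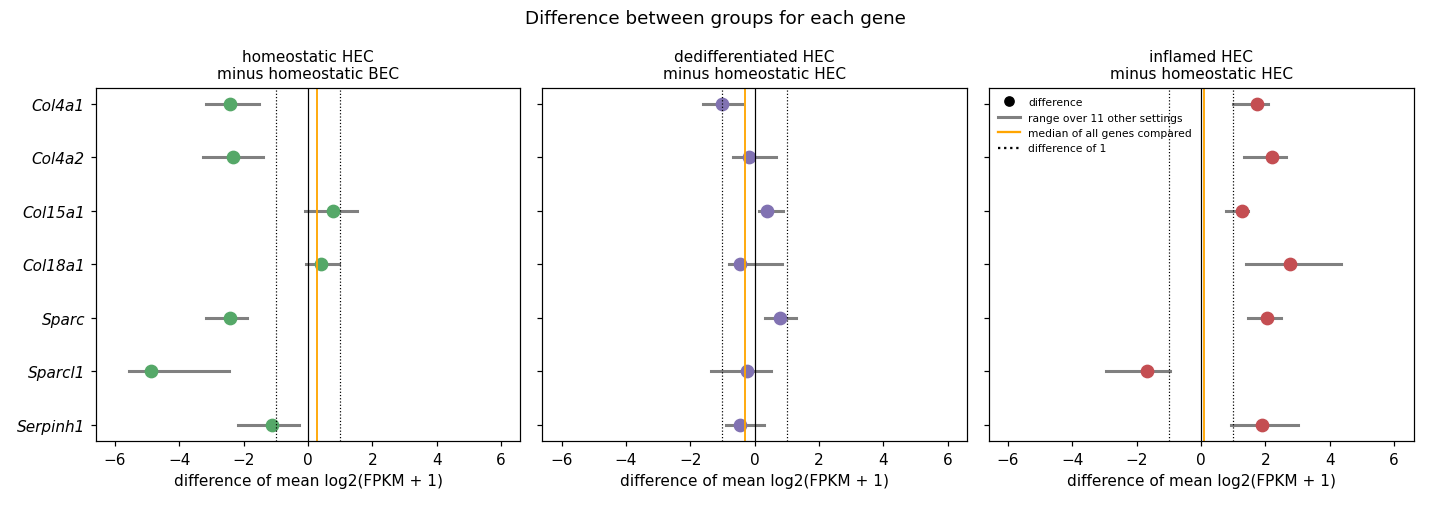
Difference of mean log2(FPKM + 1) for each gene in 3 comparisons (points), the range of that difference over 11 other settings of the analysis (grey bars), the median of all genes compared (orange line) and differences of 1 in either direction (dotted lines). Sparcl1 lies at -4.89 in the first panel and at -1.67 in the last, where the other members lie between 1.28 and 2.76.

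After LTBR-Ig none of the 7 members was called higher or lower in dedifferentiated against homeostatic HEC. Of 9008 genes compared 0.833% were higher and 9.52% lower, and a list of 7 can hold 0 at these shares. Col4a1 was closest to the limit with a difference of -0.997 and passed it under 6 of the 11 other settings (as low as -1.61 with medians over cells). Sparc differed by 0.78 in the other direction, 32 of 44 dedifferentiated HEC exceeded the homeostatic median, and 166 genes compared had a larger difference. Col15a1 differed by 0.39, Col4a2 by -0.19, Sparcl1 by -0.24, and Col18a1 and Serpinh1 by -0.45 each. The median over members was -0.24, close to -0.30 over all genes compared, and the signs of Col4a2, Col18a1, Sparcl1 and Serpinh1 changed under at least 1 other setting. Relative to the median of all genes, the difference was 1.08 for Sparc and -0.70 for Col4a1.

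Pathway genes past the limit were lower after LTBR-Ig, as were most of all genes past it. Of all genes compared 9.52% were lower and 0.833% higher, the share to set beside the counts below. Of 11 export genes 5 were lower, including the ubiquitin ligase gene Cul3 (-1.76) and Sec31a (-1.67). Nid1 (-1.61) was the only laminin, nidogen or proteoglycan gene of 8 past the limit, Loxl2 (-1.01) the only crosslinking gene of 3, and Fstl1 (-1.50) the only other SPARC family gene compared. None of the 14 modifying and folding genes passed it. Cyr61, Bmpr2, Smad1 and Tgfbr1 were lower among 14 TGF-β and matrix regulators, with Cyr61 at -1.75. Of the 15 dissociation and heat shock genes 4 were lower, and dedifferentiated HEC had fewer detected genes per cell (medians of 3075 and 3842); the part of either in these values was not tested.

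Inflamed HEC had higher levels of all members but Sparcl1. Of the 7 members 6 were higher and 1 lower in inflamed than in homeostatic HEC, beside 5.48% higher and 2.6% lower of 9525 genes compared. The differences were 2.76 for Col18a1, 2.20 for Col4a2, 2.06 for Sparc, 1.90 for Serpinh1, 1.74 for Col4a1 and 1.28 for Col15a1, and -1.67 for Sparcl1. The median over members was 1.90, against 0.10 over all genes compared, and only 11 genes compared lay above Col18a1. In mean FPKM the inflamed group was 6.81-fold higher for Col18a1, 2.96-fold for Serpinh1, 2.74-fold for Sparc, 2.56-fold for Col4a2, 2.07-fold for Col15a1 and 1.99-fold for Col4a1. Sparcl1 was 2.29-fold lower. Ranges overlapped for every gene, but 60 of 64 inflamed HEC exceeded the homeostatic median of Sparc, 57 that of Col4a2 and 55 that of Col18a1, while 19 exceeded that of Sparcl1. Direction held for all 7 under the 11 other settings, whereas with a pseudocount of 10 the differences of Col15a1 (0.76), Serpinh1 (0.93) and Sparcl1 (-0.96) lay within 1, as did that of Col4a1 with mean FPKM (0.98).

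All 7 members were detected in the same cell in 23 of 64 inflamed HEC (35.9%), 13 of 79 homeostatic HEC (16.5%), 2 of 44 dedifferentiated HEC and 3 of 32 BEC. Without Sparcl1, a choice that follows from the differences above, so that the count restates them, the other members were detected together in 44 of 64 inflamed HEC (68.8%, interval 55.9 to 79.8%), against 14 of 79 homeostatic HEC (17.7%, 10.04 to 27.9%), 2 of 44 dedifferentiated HEC (4.55%, 0.555 to 15.5%) and 3 of 32 BEC (9.38%, 1.98 to 25.02%). In the median cell the 7 genes made up 0.236% of the summed FPKM in inflamed HEC, 0.0722% in homeostatic HEC, 0.112% in dedifferentiated HEC and 0.549% in BEC.

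Several partners of these collagens were higher in inflamed HEC as well. Nid1 (1.46), Lamb1 (1.22), Lamc1 (1.17) and Hspg2 (1.16) were the 4 genes of 9 laminins, nidogens and proteoglycans past the limit, with none lower. Of 15 modifying and folding genes 3 were higher and 0 lower: Fkbp10, a folding enzyme of collagens (1.44), Glt25d1, which adds sugars to collagen lysines (1.22), and the prolyl hydroxylase P4ha1 (1.01). Of 3 crosslinking genes 1 was higher, Tgm2 (2.42), and 2 lay within 1, with a median difference of -0.06 for the list. Of 11 export genes 0 were higher and 1 lower (Ctage5, -1.12), and none of 8 receptors passed the limit. Lists this short can hold 0 at the shares of all genes compared (5.48% higher, 2.6% lower). Their median differences were -0.06 for export genes and 0.69 for receptors, against 0.10 over all genes compared. Proteases and inhibitors went both ways, 4 higher and 3 lower of 13, with the protease Adamts9 at 2.02, the membrane protease Mmp14 at 1.86, the inhibitor Timp1 at 1.55 and Timp2 at -1.54. Among 14 regulators the TGF-β receptors Tgfbr2 (1.28) and Eng (1.01) were higher and Cyr61 (-1.04) was lower. No other collagen of the 20 listed reached the detection share in either HEC group.

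Genes from the marker lists of other cells past the limit in this comparison were Mcam (pericyte list), Lyve1 (1.54) and Ccl21a (-1.53, both lymphatic list), and Pf4 (-2.20, platelet list). Ccl21a was detected in all 79 homeostatic and all 64 inflamed HEC, and Pf4 in 49 and 24 of them. Prox1 and Reln of the lymphatic list and Ppbp and Gp9 of the platelet list were 0 in both groups. Itga2b of the platelet list was detected in 5 homeostatic and 12 inflamed HEC. Mcam, present on pericytes and on endothelial cells, was detected in 58 of 64 inflamed and 34 of 79 homeostatic HEC, with a difference of 3.58. Of the other 8 pericyte markers, Cspg4, Des, Notch3, Pdgfrb and Kcnj8 did not exceed an FPKM of 0.26 in inflamed HEC. Rgs5 was detected in 7 inflamed HEC (up to 351), Acta2 in 5 (up to 505) and Abcc9 in 5 (up to 1.81). The part of these markers in the member differences was not tested. Of the 10 fibroblastic reticular cell markers, Col1a1, Col1a2, Col3a1, Dcn and Lum were 0 in all inflamed HEC, and Pdgfra, Col6a1 and Col6a2 did not exceed 0.59. Ccl19 was detected in 9 of 64 inflamed HEC (up to 1857) and 14 of 79 homeostatic HEC (up to 604). Il7 was detected in 3 inflamed HEC (up to 3.21) and 2 homeostatic HEC (up to 3.25). With cells carrying other-type markers left out the median member difference was 1.91. Of the 15 dissociation and heat shock genes 7 were lower and 1 higher in inflamed HEC, Fos by -4.33 and the heat shock gene Hsph1 by 1.14, and their part in the member differences was not tested.

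Taking the groups in order of mean level, 2 steps alone were larger than the greater SD over cells of the groups on either side. These were Sparcl1 from BEC to homeostatic HEC (a gap of 4.89, SD 3.35) and Col18a1 from inflamed to homeostatic HEC (2.76, SD 2.65). Col4a1, Col4a2 and Sparc were ordered with BEC first and inflamed HEC next, by gaps of 0.68, 0.13 and 0.35 that lay within the spread. Set against BEC, inflamed HEC had Col18a1 (3.15) and Col15a1 (2.04) higher and Sparcl1 (-6.56) lower, beside 21.8% higher and 3.87% lower of 9357 genes compared. The difference of Col4a2 in that comparison was 1.06 in odd-numbered and -1.33 in even-numbered cells. Dedifferentiated HEC against BEC had Sparcl1 at -5.12, Col4a1 at -3.42, Col4a2 at -2.51, Sparc at -1.63, Serpinh1 at -1.58 and Col15a1 at 1.16, beside 11.3% higher and 9.45% lower of 8385 genes. Inflamed against dedifferentiated HEC had 5 members higher, from 1.28 for Sparc to 3.21 for Col18a1, and Sparcl1 at -1.44, beside 15.8% higher and 1.32% lower of 9167 genes. These comparisons share groups with the ones above and add no independent values.

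Within groups the members covaried weakly from cell to cell. After group means were subtracted, the Pearson r of Col4a1 and Col4a2 over 219 cells was 0.37. Col4a2 was thereby the gene with the highest r to Col4a1 among the 6204 others at an FPKM of 1 or more in at least 20% of cells, and Col4a1 the second for Col4a2. Group by group their r was 0.54 for BEC, 0.38 for homeostatic, 0.36 for dedifferentiated and 0.28 for inflamed HEC. Serpinh1, the chaperone, had Col4a2 as its second gene (0.33) but r of only 0.17 with Col4a1 and 0.10 with Col15a1 and Col18a1. Sparc had 0.28 with Col4a2 and 0.27 with Col4a1. Col18a1 stood apart, with r between -0.09 and 0.11 to the other members.

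In homeostatic HEC the r of Sparcl1 was 0.44 with Col4a1, 0.42 with Col4a2 and 0.44 with Col15a1. In BEC, where its spread was small, these were 0.03, 0.11 and 0.36. Inflamed HEC had 0.38, 0.34 and 0.12, and the dedifferentiated cells had 0.14, 0.16 and 0.30. In inflamed HEC Sparcl1 and Col18a1 had r -0.39, against 0.12 in homeostatic HEC. The differences between groups in r were not tested. Members also had r of 0.09 to 0.27 with the number of detected genes and of -0.17 to -0.03 with log2 depth (the approximated fragments), and cells of a group may share a preparation. With the number of detected genes regressed out, the r of Col4a1 and Col4a2 was 0.32.

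**Figure D5:**
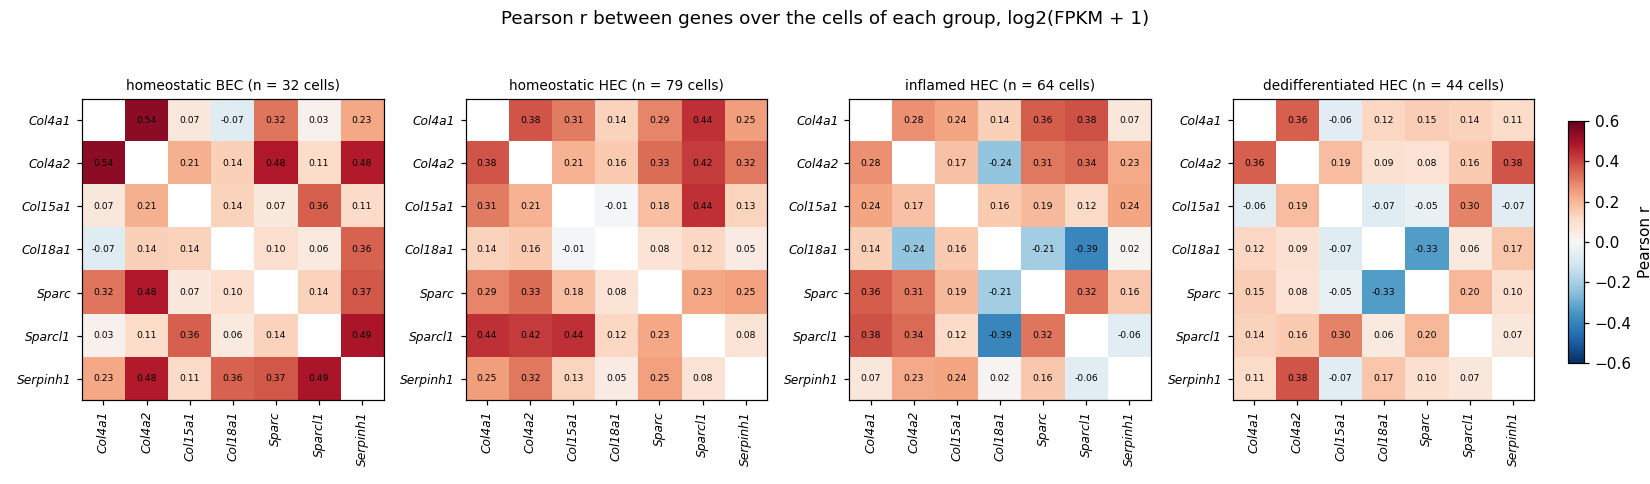
Pearson r between each pair of genes over the cells of a group, from log2(FPKM + 1), with 1 panel per group, colour for r from -0.6 to 0.6 and the value printed in each square. The Col4a1 and Col4a2 square is positive in all 4 panels (0.28 to 0.54), and the Sparcl1 and Col18a1 square is -0.39 in inflamed HEC.

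The genes of highest r to Col4a1 over the 219 cells were, after Col4a2, Mcam (0.36), Igfbp7 (0.35), Sparcl1 (0.33) and Ly6c1 (0.32). For Col4a2 the apelin receptor gene Aplnr (0.39), Slc14a1 (0.34) and St8sia4 (0.33) joined Col4a1 and Serpinh1. Sparcl1 had Ly6c1 (0.43), Aplnr (0.40), the lipoprotein receptor gene Scarb1 (0.39), Rgcc (0.38) and Igfbp7 (0.37). Its r with Rgcc was 0.71 in inflamed HEC, 0.28 in homeostatic HEC, 0.18 in BEC and 0.14 in dedifferentiated HEC. With Ly6c1, Aplnr and Scarb1 it was 0.02, 0.04 and 0.01 in BEC, and between 0.34 and 0.54 in the HEC groups. Sparc had Scarb1 (0.39) first, then Ly6c1 (0.31), Nav1 (0.31), Cxx1a (0.30) and BC028528 (0.30). Col15a1 had Ehd4 (0.33), Igfbp7 (0.31), Sparcl1 (0.29), Samhd1 (0.27) and Plvap (0.27). For Serpinh1 the first gene was Cxx1a (0.36), and Akap2 (0.29), Mcam (0.28) and Ldha (0.27) followed Col4a2. Col18a1 had the lowest first value, 0.30 with Adrm1, ahead of Nfic (0.27), Pank2 (0.26), Trove2 (0.26) and Gpr146 (0.25).

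Glycam1, the abundant sialomucin of high endothelial cells, was looked at after its values were seen. Its r was -0.40 with Sparcl1, -0.39 with Sparc and -0.33 with Col4a1, and 0.09 with Col18a1. Because FPKM share a total and Glycam1 is abundant, r was also computed after rescaling each cell to the same sum without Glycam1 and Ccl21a. This gave -0.39, -0.38, -0.31 and 0.10.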

How the data were processed

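Single cells were captured on the Fluidigm C1 system and made into Nextera XT libraries, per the labels' protocols. The authors deposited FPKM for 24049 symbols and 220 cells, with 2 decimals. CASAVA 1.8, RSEM 1.2.18 and mm10 are named in the submitters' processing notes, with roles, annotation and doublet handling not given in the sources used here. Since FPKM are not counts, count models were not fitted, and with 1 sample per group no test was made. Computed here were lowest, median and highest FPKM, the mean of log2(FPKM + 1) with its SD over cells, differences of means, shares of cells with exact Clopper-Pearson 95% intervals, and Pearson r. A difference on the log2(FPKM + 1) scale understates the change of low genes. Near-identical cells (r above 0.9) were averaged. Depth was approximated from FPKM steps of 2974 single-transcript genes and was 0.991 to 1.00 times the true depth in 20 simulated cells. The simulation used whole fragments and the same transcript lengths as the estimate, so it does not show the accuracy on the deposited FPKM. The difference script was tested on simulated data: with 200 of 24049 genes changed by 2 log2 units, the median recovered change was 1.74. Intervals cover counting error only, since amplified reads lack molecular tags. Gene positions are from GENCODE M21 (GRCm38). Named genes were the members, the 5 genes of highest r to each, and the 4 largest differences of each pathway list per comparison, of which the text gives a part; Glycam1, Ccl21a, single markers and genes that complete a short count (Nid2) were added after their values were seen. The members and lists were chosen with earlier results of these data known. Alternatives changed the pseudocount (0.1 or 10), the average, the scaling, the cells used and the filter. Python 3.11.15, numpy 2.4.6, pandas 2.3.3 and scipy 1.17.1 were used.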

Additional observations from a re-analysis of the deposited data

How the results depend on the processing

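The 11 alternatives left the direction of the called members unchanged in the 3 main comparisons. Over all 6 comparisons 453 single-member values moved by less than the smaller SD over cells of the groups compared, and 9 by more. That SD is wide, so the count is not a measure of stability. Col4a2 in inflamed HEC minus BEC, for example, ran from -1.33 to 1.06 and stayed within it (SD 1.84). Counts of members past a difference of 1 did move, and the cause was not tested. Higher in homeostatic HEC than in BEC was 1 gene with a pseudocount of 0.1 and with medians (0 in the report). Lower in dedifferentiated than in homeostatic HEC (0 in the report) was 1 with a pseudocount of 0.1, arithmetic means, rescaling of each cell to the same sum without Glycam1 and Ccl21a, other-type cells left out, or even-numbered cells, and 2 with medians; higher was 1 with median-ratio rescaling, matched cells or odd-numbered cells. Lower in inflamed than in homeostatic HEC was 0 with a pseudocount of 10. Inflamed against dedifferentiated HEC had 0 lower with a pseudocount of 10 or odd-numbered cells and 3 higher with arithmetic means. Dedifferentiated HEC against BEC had 0 higher with a pseudocount of 10, arithmetic means or matched cells. Inflamed HEC against BEC had 1 higher with a pseudocount of 10 or arithmetic means, 4 higher with odd-numbered cells, 3 lower with median-ratio rescaling and 2 lower with even-numbered cells. Without the filter on low values, genes higher and lower by 1 or more made up 10.1% and 2.61% (homeostatic HEC minus BEC), 0.492% and 5.62% (dedifferentiated minus homeostatic HEC), 3.27% and 1.55% (inflamed minus homeostatic HEC), 9.54% and 0.796% (inflamed minus dedifferentiated HEC), 6.55% and 5.46% (dedifferentiated HEC minus BEC) and 13.2% and 2.34% (inflamed HEC minus BEC). Rescaling by the median ratio took the median of all genes compared from 0.28 to 0.08 in homeostatic HEC minus BEC and from -0.30 to -0.14 in dedifferentiated minus homeostatic HEC. No paired analysis was possible because cell numbers do not pair cells and no test was made. Cells at low FPKM rest on few fragments, and 1 sample per group leaves differences between mice, sorts and chips not separable from the conditions.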
